A study of Homo sapiens with 12 samples.

Results

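A set of 149 genes carried an m6A peak in all 3 libraries of trastuzumab-resistant BT474 cells and in none of the 3 libraries of trastuzumab-sensitive BT474 cells. The genes were chosen by their presence in the deposited peak lists: at least 1 row under the gene's name in each resistant list, and no row in any sensitive list. They are 1.78% of the 8353 genes with a peak in any list, and 2.64% of the 5646 genes with a peak in all 3 resistant lists. The other 5497 genes of those 3 lists serve below as the background, called the other genes. Because the same lists chose the set, p-values and folds of the peaks are given as a description, with no test.

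The resistant cells were BT474.TtzmR, labelled with a BT474 background, and the cells they were set against were the sensitive line BT474, established from a human breast tumour and known for its amplified ERBB2 gene. Trastuzumab is an antibody against the ERBB2 receptor. Both were grown in DMEM with serum and antibiotics, and the labels do not say whether the resistant cells were kept in trastuzumab or whether they are a single clone. RNA fragments were pulled down with an antibody against m6A (MeRIP-seq), in 3 pull-down libraries for each line, beside 3 input libraries for each line whose levels are not analysed here. The epithelial and luminal markers KRT8, KRT18, KRT19, EPCAM, CDH1, ERBB2 and TFAP2C had a peak in all 6 lists, whereas GATA3 had one in 2 resistant and 3 sensitive lists and ESR1 in 1 resistant and no sensitive list. Among markers of other cell types, PTPRC, CD3E and PECAM1 were in no list, VIM was in 1 list of each line and COL1A1 was in all 6.

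N6-methyladenosine, or m6A, is a methyl mark that a nuclear complex of METTL3 and METTL14 places on adenosines of messenger RNA and that the demethylases FTO and ALKBH5 can remove. Proteins of the YTH family bind marked RNA and affect its splicing, export, translation and decay. In most mammalian cells the mark is most frequent around stop codons and in 3′ UTRs. A peak in a pull-down list requires both a marked site and enough of the transcript to be sequenced. A bulk peak list alone does not separate the number of cells marked, the amount of RNA per cell and the fraction of molecules marked. The levels in the input libraries, which bear on the amount of RNA, are not analysed here.

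The 149 genes stood at the far corner of a graded pattern. Another 283 genes were in all 3 resistant lists and 1 sensitive list, 544 were in 3 and 2, and 4670 were in all 6. The opposite pattern, all 3 sensitive lists and no resistant list, was found for 70 genes, or 1.37% of the 5097 genes in all 3 sensitive lists. Resistant lists were longer: they held 32638, 30767 and 32200 rows, against 29063, 28122 and 26028 rows in sensitive lists. A row is 1 peak on 1 transcript isoform, and the same bases are listed again for each further isoform. Depth per library is unknown because the lists hold no read totals, and the part that list length plays in the set was not tested beyond shortening each list to the same 26028 rows, which gave 101 such genes. Of those, 72 belong to the 149.

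**Figure D1:**
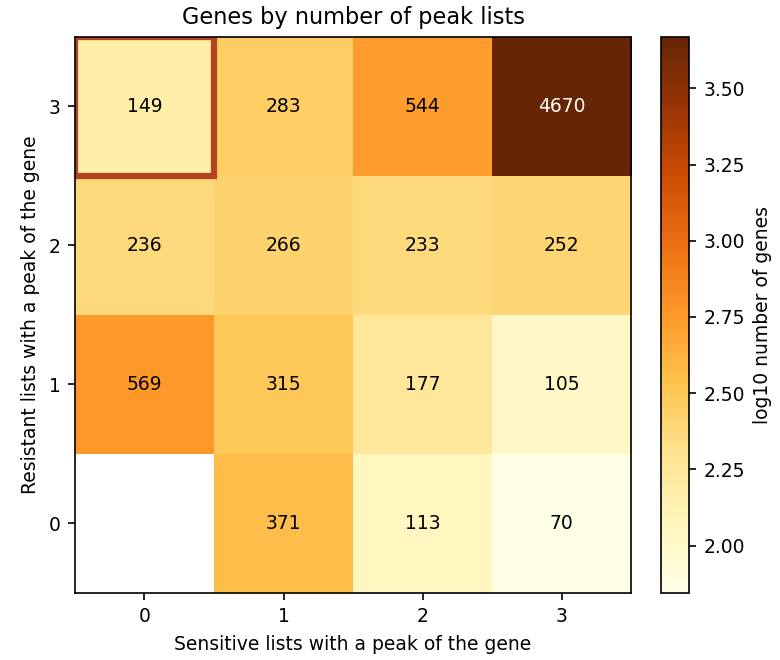
Number of genes by how many of the 3 resistant lists (vertical axis) and of the 3 sensitive lists (horizontal axis) hold a peak of the gene, coloured by log10 of the number. The framed cell is the set of 149 genes, and 4670 genes lie in the opposite upper corner with a peak in all 6 lists.

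Genes just outside the rule show how it cuts. GAPDH, the glycolytic enzyme often used as a loading reference, had peak p-values of 1.58e-38, 1.00e-25 and 1.58e-39 in the resistant lists, and it missed the set because of a row in sensitive replicate 2 with a peak p-value of 3.98e-30. Its fold enrichment was 1.65, 1.47 and 1.6 in the resistant lists and 1.35 in that sensitive list. S100A11, RPL17, ZNF532 and RPS3 were left out in the same way, each by 1 sensitive list. At the other end of the set, CNTD2, an atypical cyclin, had its smallest p-values at 0.000513, 0.00398 and 0.00151. The lists end at about that level: the largest p of any row was 0.00603, 0.00589 and 0.00631 in the resistant lists.

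Summarised per gene, the 149 genes had larger p-values and a lower median highest fold than the other genes. Each gene was summarised in a list by its smallest peak p and its highest fold enrichment, both the authors' own values. The other genes had more regions per gene to take these from, with 10754 regions in replicate 1 against 202 in the 149 genes. The part of this in the contrast was not tested. The upper quartile of the highest fold was 11, 8.6 and 11.6 for the 149 genes and 9.93, 8.84 and 9.87 for the other genes in replicates 1, 2 and 3. The median of the largest of the 3 smallest p-values was 0.000355 for the 149 genes and 5.37e-10 for the other genes. A p below 1e-05 in all 3 lists was reached by 23 of the 149 genes (15.4%) and by 4056 of the other genes (73.8%). The largest p was above 0.001 for 46 of the 149 genes (30.9%) and for 4.38% of the other genes. The median highest fold was 4.61 ± 0.31 for the 149 genes and 5.38 ± 0.26 for the other genes (mean ± SD of 3 list medians). Folds below 2 were found for 16.6 ± 1.40% of the 149 genes and 3.93 ± 0.25% of the other genes (SD, n = 3 lists). Genes with 1 sensitive list lay near the set, with a median highest fold of 3.97 ± 0.33 (SD, n = 3 lists) and a p below 1e-05 in 49.8 ± 4.24% of them per list, against 37.4 ± 2.79% of the 149 genes.

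Small p-values and high folds mostly belonged to different members. Genes with a fold of at least 10 in all 3 lists numbered 15, and those below 2 in all 3 lists also numbered 15. INHBE and LAMP3 were the 2 members that combined a p below 1e-05 with a fold reaching 5 in each of the 3 lists. Across the 149 genes, Spearman's rho of the fold with the p-value was 0.05, -0.02 and 0.23 in the 3 lists, a description over genes that share each library. Between pairs of lists the folds of the 149 genes had rho of 0.74 to 0.83, against 0.77 to 0.78 for the other genes. Their p-values had rho of 0.43 to 0.51, against 0.90 to 0.91 for the other genes.

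**Figure D2:**
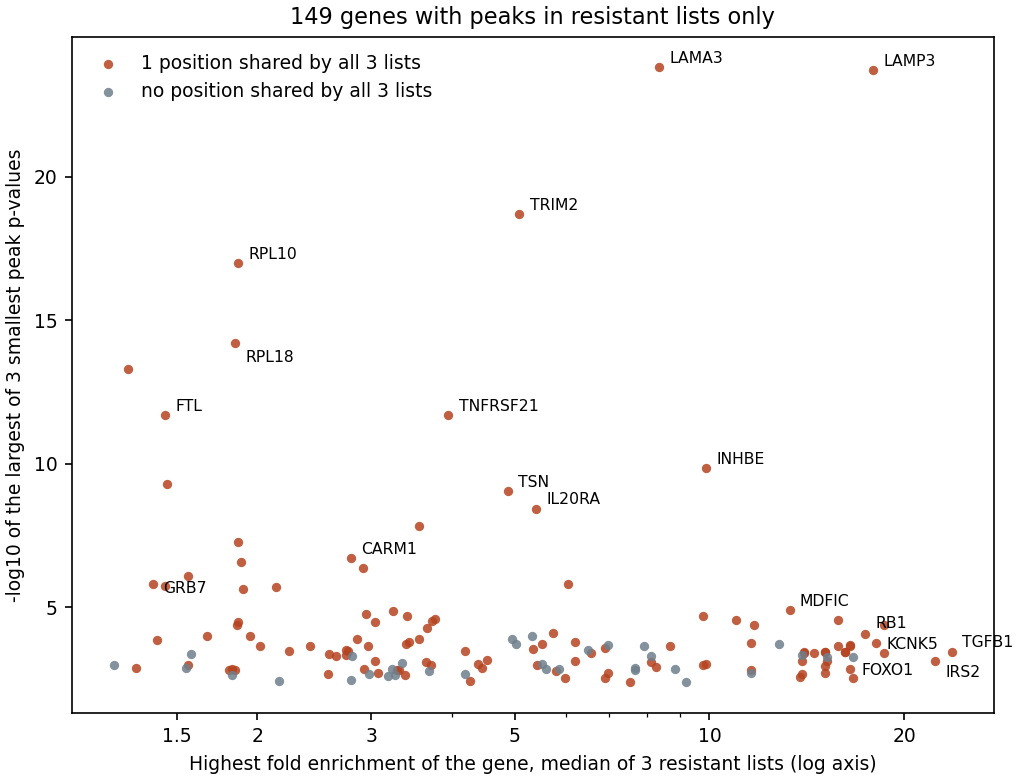
Each point is 1 of the 149 genes, with the median over 3 resistant lists of its highest fold enrichment on a log axis and, on the vertical axis, -log10 of the largest of its 3 smallest peak p-values. LAMA3 and LAMP3 stand at the top, ribosomal protein genes at the upper left with folds near 1 to 2, and most genes of fold above 10 lie near the bottom.

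Many of the high folds were the same number in unrelated genes. In resistant replicate 1 a highest fold of 15.2 was shared by 8 members, among them FOXO1, CDKN2B, GPR135 and MDFIC, and 16.5 by another 8, among them ATP6V0A2, RAB36 and USP33. In replicate 3 a fold of 15.1 was shared by 8 members, and in replicate 2 a fold of 6.98 was shared by 6. Of the members with a fold of at least 10, 27 of 38, 14 of 29 and 36 of 43 in replicates 1, 2 and 3 shared their value with at least 2 other members. Below 10, it was 29 of 111, 28 of 120 and 10 of 106. Folds are printed in coarser steps from 10 upward than below 10, and the part of this in the contrast was not tested. Sharing was not counted for the other genes. The lists do not hold the read counts behind these ratios.

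Member peaks were short. The row with the smallest p covered a median of 180 exonic bases in the 149 genes (interquartile range 150 to 240, range 60 to 718) and 386 in the other genes (264 to 568). Transcripts differed less, with median lengths of 2826 and 3097 bases, so that the row covered a median of 6.61% of its transcript in the 149 genes and 12.8% in the other genes. A single merged region over all 3 lists was found for 71 members (47.7%), against 36.2% of the other genes. Regions here are rows of the same strand that were joined because they have 1 or more exonic bases in common, directly or through other rows.

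A gene can meet the rule with peaks at different places in different lists. One position, here a joined region with a row in each list, was found for 116 of the 149 genes (77.9%, exact 95% interval 70.3 to 84.2%, for counting error only). That interval takes genes as independent draws, although they share the same libraries, and it does not cover variation between libraries. One position was found for 95.7% of the other genes. Rows can be joined through a row of another list, so the rows of the 3 lists need not all share bases. The 33 genes without a common position include FOXO1, CDKN2B, PPARGC1A, GATA6, TRAF1, SORT1, ELK1 and KLHDC7B. FOXO1, a forkhead factor that AKT keeps out of the nucleus, is an example on chromosome 13. Its strongest row lay in the 3′ UTR at 41133089 to 41133653 in replicate 1, in coding sequence at 41133683 to 41133742 in replicate 2 and in coding sequence at 41134160 to 41134369 in replicate 3. Replicates 1 and 3 also shared a 3′ UTR row at 41132910 to 41133000 and overlapped in coding sequence at 41134250 to 41134369. Replicate 2 had no row at either place. No sensitive list had a row of another gene name on the exonic bases of a member's resistant rows.

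On the transcript, the regions of the 149 genes lay on the stop codon side about as often as those of the other genes. Regions in the 3′ UTR, or across the end of the coding sequence, made up 53.8 ± 2.98% of member regions per list and 53.2 ± 0.46% of regions of the other genes (SD, n = 3 lists). Within that total, the 3′ UTR alone held 40.98 ± 1.80% of member regions and 34.8 ± 0.91% of regions of the other genes. Regions that spanned coding sequence and 3′ UTR were 12.9 ± 1.29% of member regions and 18.4 ± 0.47% in the other genes. For both features the 3 lists of members and the 3 lists of other genes did not overlap. The same held for the 5′ UTR alone, for coding sequence and for more than 1 exon block, given next. Non-overlap is therefore not particular to the 3′ UTR or the end of the coding sequence. Members and other genes come from the same libraries. Regions in the 5′ UTR alone were 6.33 ± 0.69% of member regions and 3.41 ± 0.25% of regions of the other genes. Coding sequence held 36.96 ± 1.02% of member regions and 38.6 ± 0.41% of regions of the other genes. More than 1 exon block was covered by 16.7 ± 2.24% of member regions, against 27.2 ± 0.26% in the other genes. The part of the shorter peaks in these shares was not tested. The feature of the strongest row was the same in all 3 lists for 103 members.

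**Figure D3:**
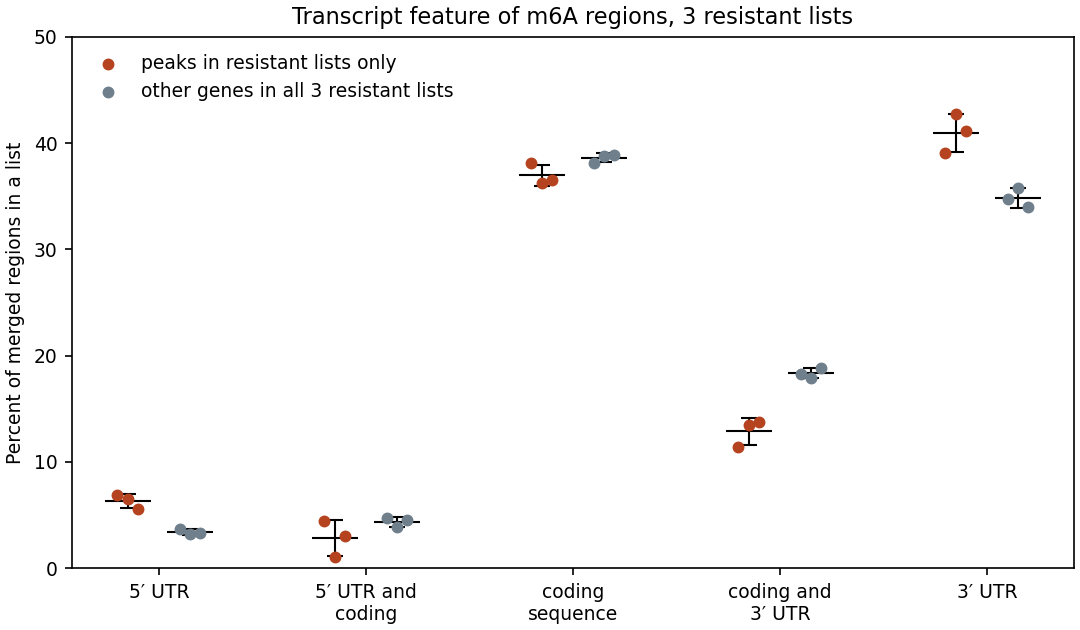
Percent of merged m6A regions of a resistant list in each transcript feature, as the authors annotated it, for the 149 genes (left of each pair) and the other genes in all 3 resistant lists (right). Points are the 3 lists, and bars are the mean and SD. The 3′ UTR holds 40.98% of member regions and 34.8% of the others, and regions across the end of the coding sequence 12.9% and 18.4%.

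By known role, the set spread over all 12 classes used, which were assigned by hand. Where a highest fold is given for a gene, it can come from different positions in different lists. It held 16 receptor, ligand and adhesion genes, 16 of transcription and chromatin, 15 of RNA processing and translation, 14 of signalling, 14 of vesicle traffic, 13 of ubiquitin and protein folding, 12 of metabolism and mitochondria, 9 of the cytoskeleton and cilia, 7 of channels and transporters, 6 of DNA repair and cell cycle and 4 of immune or stress response. No role was assigned to 23. For the counts of members in gene lists below, the share of members among all genes in the 3 resistant lists was 2.64%. The median highest fold ran from 2.02 in RNA processing and translation to 8.85 in the 4 immune or stress genes. All 9 cytoskeleton and cilia genes had their strongest row in coding sequence, whereas 10 of the 12 metabolic genes had it at the end of the coding sequence or in the 3′ UTR.

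**Figure D4:**
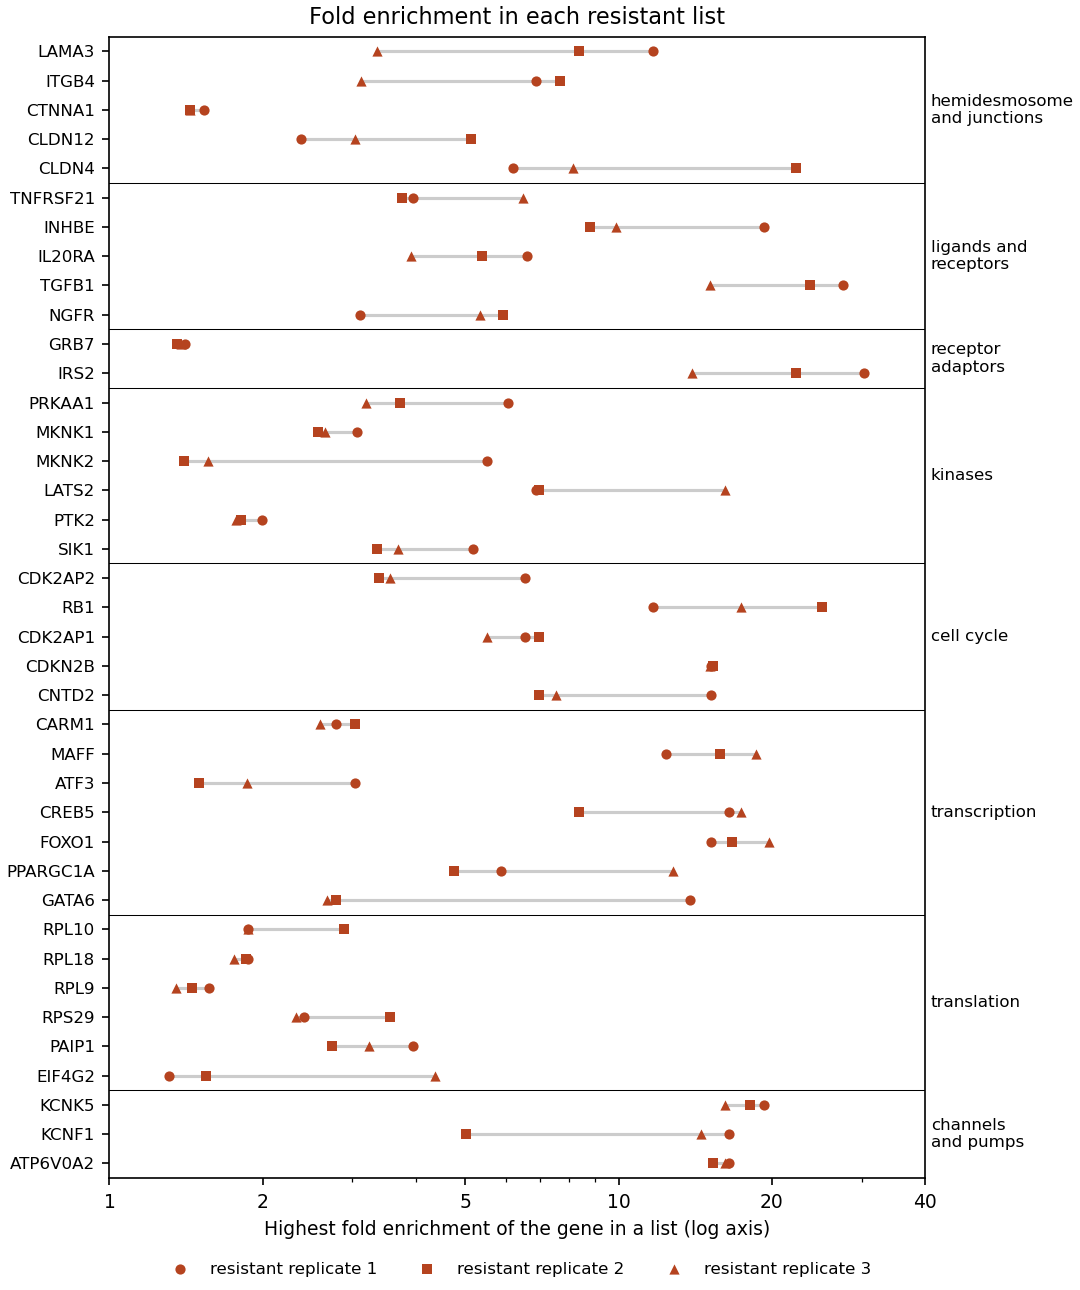
Highest fold enrichment of 39 of the 149 genes in resistant replicates 1, 2 and 3, on a log axis, grouped by role. The ribosomal protein gene RPL9 and the adaptor GRB7 sit between 1.35 and 1.57 in every list, whereas KCNK5, TGFB1, ATP6V0A2 and FOXO1 are at 15.1 or more in every list.

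Adhesion genes included both sides of a hemidesmosome contact. LAMA3 encodes the alpha 3 chain of laminin in the basement membrane, and ITGB4 the beta 4 integrin subunit that binds it. They were 2 of the 10 integrin and laminin genes in all 3 resistant lists. LAMA3 stood first when genes were ordered by the largest of their 3 p-values, which were 1.58e-24, 7.94e-29 and 7.94e-26, from a coding-sequence peak of up to 718 exonic bases over 6 exons of chromosome 18, 21478953 to 21484520. That peak had folds of 3.19, 4.03 and 3.30, while a second peak in the 3′ UTR, at folds of 11.7 and 8.37 in replicates 1 and 2, was not listed in replicate 3. ITGB4 peaked around its stop codon, at chromosome 17, 73753597 to 73753806 in replicate 3, with highest folds of 6.89, 7.67 and 3.12. CTNNA1, the alpha-catenin that ties cadherins to actin, was low throughout at 1.53, 1.44 and 1.44. The tight junction genes CLDN12 and CLDN4 had highest folds of 2.38, 5.12 and 3.04 and of 6.20, 22.3 and 8.12.

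Ligand and receptor genes included 3 with small p-values in every list. TNFRSF21, death receptor 6, peaked at its stop codon on chromosome 6, 47200346 to 47200676, with p-values of 2.00e-12, 2.00e-12 and 2.51e-17 and folds of 3.95, 3.76 and 6.49. A second peak of this gene in coding sequence was also listed in all 3 libraries. IL20RA, a receptor subunit for cytokines of the interleukin-10 family, peaked at its stop codon on chromosome 6, 137322656 to 137323163, with highest folds of 6.61, 5.39 and 3.91. INHBE, which encodes the activin beta E subunit, had a coding-sequence peak on chromosome 12, 57850067 to 57850565, and highest folds of 19.3, 8.77 and 9.87. All 3 genes had their row with the smallest p at 1 position throughout.

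TGFB1, the ligand of the TGF-beta receptors, was the 1 member among 17 genes of the TGF-beta and BMP list in all 3 resistant lists. The members INHBE and BMP1 are not in that list. TGFB1 peaked across its stop codon on chromosome 19, 41836883 to 41837032, with folds of 27.6, 23.7 and 15.1 and p-values of 3.47e-07, 3.63e-06 and 0.000347. NGFR, the low-affinity neurotrophin receptor, had a 3′ UTR peak with highest folds of 3.10, 5.93 and 3.74, and replicate 3 alone listed a row at the stop codon with a fold of 5.34. Its fold in the authors' deposited table ran the other way, as given below.

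Adaptors and kinases were mostly single members of their pathways. GRB7, an SH2 adaptor that binds ERBB2 and whose gene lies beside ERBB2, was the 1 member among 10 genes of the ERBB list in all 3 resistant lists. Its 3′ UTR peak on chromosome 17, 37903386 to 37903535, was shallow and steady, with folds of 1.41, 1.36 and 1.38 and p-values of 4.47e-07, 1.58e-06 and 4.68e-09. ERBB2, EGFR and ERBB3 themselves had a peak in all 6 lists. IRS2, which couples insulin and IGF receptors to PI3K, was the 1 member of 8 insulin and IGF genes. It had highest folds of 30.3, 22.3 and 13.9, from coding-sequence rows that start at 110434489 and 110434459 on chromosome 13 in replicates 1 and 3. In replicate 2 the row ran over 2 exon blocks from 110408636 in the 3′ UTR to 110434758 in the coding sequence, and it covered the same coding bases. FOXO1, described above, was the 1 member of 23 genes of the PI3K, AKT, FOXO and mTOR list, with highest folds of 15.2, 16.7 and 19.7. The member C12orf66, described below, is not in that list.

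Both MAP-kinase-interacting kinases that phosphorylate the translation factor eIF4E were members. MKNK1 had highest folds of 3.06, 2.57 and 2.65, and the MKNK2 region shared by the 3 lists had 1.48, 1.40 and 1.56. Replicate 1 alone also listed a 5′ UTR row of MKNK2 at 5.51. PRKAA1, a catalytic subunit of the energy sensor AMPK, had a 3′ UTR peak at 6.06, 3.72 and 3.19, and replicate 3 alone also listed a coding-sequence row. PTK2, focal adhesion kinase, was low at 1.99, 1.81 and 1.77. LATS2, a kinase of the Hippo pathway, had 6.89, 6.98 and 16.2, and its row with the smallest p lay at the start of its coding sequence. No gene of the RAS, RAF and ERK list, of the Wnt list or of the Notch list was a member, of 15, 14 and 9 genes in all 3 resistant lists. The list of m6A writers, erasers and readers had none of 13. At the 2.64% share of members among all genes in the 3 resistant lists, lists of this size may hold no member. Nothing is therefore read from these counts.

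Among cell cycle genes, RB1 and CDKN2B were 2 of 7 genes of the cell cycle and RB list in all 3 resistant lists. RB1, the retinoblastoma protein that holds back entry into S phase, peaked near the start of its coding sequence on chromosome 13, 48878090 to 48881470, with folds of 11.7, 25.1 and 17.4. CDKN2B, an inhibitor of CDK4 and CDK6, had folds of 15.2, 15.3 and 15.1, which look alike but came from 3′ UTR rows with no position common to all 3 lists. CDK2AP1 and CDK2AP2, a pair of related CDK2-associated proteins, were both members. CDK2AP2 had p-values of 1.51e-10, 1.48e-08 and 5.01e-14 in its 3′ UTR, with folds of 2.12, 2.2 and 3.55. A second 3′ UTR peak of this gene, at folds of 6.55 and 3.39 in replicates 1 and 2, was not listed in replicate 3. CDK2AP1 had 6.55, 6.98 and 5.51 near its translation start, with p-values of 7.76e-05, 0.000355 and 0.000372.

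Transcription genes ranged from steady shallow peaks to high folds at weak p-values. CARM1, an arginine methyltransferase that acts as a coactivator of nuclear receptors, had 3′ UTR folds of 2.79, 3.04 and 2.59 on chromosome 19, 11032889 to 11033307, with p-values of 3.55e-10, 3.16e-13 and 1.86e-07. POLR3D, a subunit of RNA polymerase III, had highest folds of 2.80, 2.91 and 3.48. MAFF, a small MAF factor, had 12.4, 15.8 and 18.6 in the 3′ UTR at 1 position. MDFIC, which holds a MyoD family inhibitor domain, had 4.82, 13.3 and 10.1 in its 3′ UTR and 15.2, 6.98 and 11 in coding sequence. ATF3, a stress-induced factor, had 3.03, 1.5 and 1.86, and CREB5 had 16.5, 8.37 and 17.4. GATA6 came near the end of the p order, with highest folds of 13.8, 2.79 and 2.68 and no common position. Genes with a zinc finger symbol (ZNF, ZSCAN, ZKSCAN, ZBTB or ZFP) were few. ZNF470 and ZNF506 were the 2 members of 323 in all 3 resistant lists, which is 1.34% of the set and 5.84% of the other genes. Zinc finger factors under other symbols, such as the member MZF1, are not in this count.

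Ribosomal protein genes were repeatedly represented in the set. They numbered 6 of the 75 mitochondrial and cytosolic ribosomal protein genes in all 3 resistant lists, or 4.03% of the set and 1.26% of the other genes. No such gene had the opposite pattern. All 6 are cytosolic, and the share among cytosolic genes alone was not counted. RPL10, RPL18, RPL9 and RPS29 are described here. Their folds were low beside most of the set. RPL18 had folds of 1.87, 1.85 and 1.76 with p-values of 7.94e-17, 3.98e-17 and 6.31e-15. RPL9 had folds of 1.57, 1.45 and 1.35, and RPS29 2.41, 3.55 and 2.32. RPL10, at 1.87, 2.89 and 1.87, was listed on an alternate scaffold of the assembly and not on a chromosome. Ribosomal protein genes have many processed pseudogenes, and how reads with several matches were counted is not given in the sources used here, so these values are uncertain. RPL17 and RPS3, just outside the rule, had folds of 1.32 to 1.5 in the resistant lists and 1.21 and 1.27 in their 1 sensitive list.

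Some other widely expressed genes also had low folds in every list. FTL, the ferritin light chain, had folds of 1.51, 1.44 and 1.37 with p-values of 3.16e-19, 1.58e-15 and 2.00e-12. PRDX2, a peroxide-removing enzyme, had 1.64, 1.5 and 1.56. Some genes of the RNA processing and translation class lay above its median of 2.02, and others did not. EIF4G2 had highest folds of 1.31, 1.55 and 4.35, and STAU2 had 2.02, 1.9 and 2.48. PAIP1, which binds the poly(A)-binding protein, had 3.94, 2.73 and 3.24 at its translation start on chromosome 5, 43556792 to 43557061. TSN, the RNA-binding protein translin, had 7.92, 4.88 and 4.44 in its 3′ UTR, with p-values of 1.00e-15, 3.16e-11 and 8.71e-10. RTCA, the RNA 3′-terminal phosphate cyclase, had the highest median fold of the class, 18.6, with 15.3 in replicate 2 and 18.6 in replicate 3 and a still higher value in replicate 1.

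Ubiquitin genes were led by TRIM2, a RING-type ligase, whose coding-sequence peak on chromosome 4, 154216726 to 154236713, had p-values of 1.58e-21, 2.00e-19 and 2.00e-21 and folds of 4.73, 5.48 and 5.08. A second TRIM2 peak in the 3′ UTR was also in all 3 lists. TRIM8 and RNF144A are further RING-type ligases and KLHL42 is a kelch adaptor of cullin ligases, and USP31 and USP33, 2 of 29 ubiquitin proteases in all 3 resistant lists, remove ubiquitin. USP33 had highest folds of 16.5, 9.77 and 15.1, and RNF144A had 13.8, 18.1 and 6.96. WSB1, a SOCS-box substrate receptor, was lower in its 3′ UTR at 4.94, 3.41 and 2.73.

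Vesicle and lysosome genes included LAMP3, a lysosome-associated membrane protein, second in the p order. Its coding-sequence peak on chromosome 3, 182871474 to 182871948, had folds of 6.33, 6.67 and 5.51, and its 3′ UTR peak had 17.9, 26.5 and 6.96. Both peaks were in all 3 lists. RAB36, a RAB GTPase, had 16.5, 18.1 and 16.2, and CHGB, a secretory granule protein, had 17.9, 8.37 and 11. RAB39A had 4.82, 8.84 and 6.19. The arrestin-like adaptor ARRDC1 had 3.39, 1.95 and 1.81. The endocytic adaptor EPS15L1 had 4.96 and 5.58 in its 3′ UTR in replicates 1 and 2, and 1.8 in coding sequence in replicate 3. FGD1, an exchange factor for CDC42, had 2.86, 2.24 and 2.87 in its 3′ UTR. A 5′ UTR peak of FGD1, at 8.27 and 4.45 in replicates 1 and 3, was not listed in replicate 2. Among pumps and channels, the potassium channel genes KCNK5 and KCNF1 were 2 of 6 in all 3 resistant lists. KCNK5 had 19.3, 18.1 and 16.2 at its stop codon on chromosome 6, 39158656 to 39158835. With RAB36 it had the highest minimum of the set, 16.2. ATP6V0A2, a subunit of the vacuolar proton pump, had 16.5, 15.3 and 16.2. The transporters were lower: the glycine transporter SLC6A9 had 3.22, 3.77 and 4.96, SLC16A9 had 4.53, 6.98 and 3.95 and ABCA9, of the ABC family, had 2.85, 3.01 and 2.69. The solute carriers were 2 of 85 in all 3 resistant lists.

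Metabolic members included SHMT2, the mitochondrial serine hydroxymethyltransferase, with highest folds of 2.57, 1.93 and 2.14. TSTA3, which makes GDP-fucose, had 2.27, 3.49 and 3.43, and CERK, ceramide kinase, had 15.2, 11.2 and 11.6. Of the immune and stress genes, HRK, a BH3-only activator of apoptosis, had 15.8, 20.9 and 8.12 and APOL6 had 16.5, 18.1 and 12.8, whereas IFI30, a lysosomal thiol reductase, had 1.83, 1.90 and 2.10. Cytoskeletal members included the kinesins KIF21B, at 11, 9.77 and 8.51, and KIF27, at 16.5, 4.88 and 11.6, and the ciliary gene CC2D2A at 15.8, 7.91 and 15.1. TPM2, a tropomyosin, had 11.7, 9.77 and 17.4 in coding sequence. PRICKLE2, of the planar cell polarity pathway, had highest folds of 6.55, 4.19 and 4.06, from different positions in coding sequence or at the stop codon.

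Among the 23 members with no assigned role, TMEM205 and FAM43A were within the first 20 by p-value. TMEM205, a membrane protein, peaked at its stop codon on chromosome 19, 11453461 to 11453641, with folds of 1.96, 1.89 and 1.82. FAM43A had folds of 7.81, 6.05 and 3.77 in coding sequence and of 8.96, 5.18 and 4.26 in its 5′ UTR. AC006449.1 had 1.64, 1.94 and 1.87, and it was the 1 member whose strongest row covered more than 50% of its transcript. POTEE, at 3.22, 3.66 and 6.96, belongs to a family of near-identical copies, so its values are uncertain. KIAA0355, KIAA1257 and C16orf89 spanned 3.26 to 15.1, 3.59 to 20.7 and 5.97 to 14 over the 3 lists. Some members that do have an assigned role are given here too. C12orf66, of the KICSTOR complex upstream of mTORC1 and in the signalling class, had 2.25, 3.41 and 3.29. FAM60A, a subunit of the SIN3 complex in the transcription class, had 5.74, 8.6 and 3.15. The mitochondrial RNA-binding protein FASTKD2, in the RNA processing and translation class, had 2.01, 4.5 and 4.26.

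By chromosome, 18 members (12.1%) were on chromosome 19, which held 8.20% of the other genes, and 15 were on chromosome 1. Member pairs within 1 Mb of each other numbered 13. They included CDH13 and MLYCD on chromosome 16, 119 kb apart on the same strand, and MKNK1 and EFCAB14 on chromosome 1, 138 kb apart on the same strand.

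The authors' deposited table compares the lines region by region, with a linear fold of resistant over sensitive cells and a p-value. It holds 117 of the 149 genes, and 32 have no region in it. A region was called higher where its fold reached 1.5 and its p was under 0.05, the limits that give the authors' own called sets. Of the 117 members, 39 had a region called higher in the authors' deposited table (33.3%), where 14.2% of all 5553 genes compared had one. In the authors' deposited table no member was called lower on any region, where 2.76% of all genes compared had one. The rule and the table use the same libraries, so nothing is read from these counts. All 39 were called on a region that overlaps a resistant peak of the gene.

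The size of the difference was modest for most members. In the authors' deposited table the median over 117 members of the gene's median log2 fold was 0.53 (a fold of 1.44), with an interquartile range of 0.40 to 0.92, and over all 5553 genes it was 0.32 (a fold of 1.25). It was above 0 for 109 of 117 members (93.2%) and for 73.0% of all genes compared in the authors' deposited table. The 40 compared genes of the opposite pattern had a median log2 fold of -0.54 in the authors' deposited table, and 7 of them had a region called lower.

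**Figure D5:**
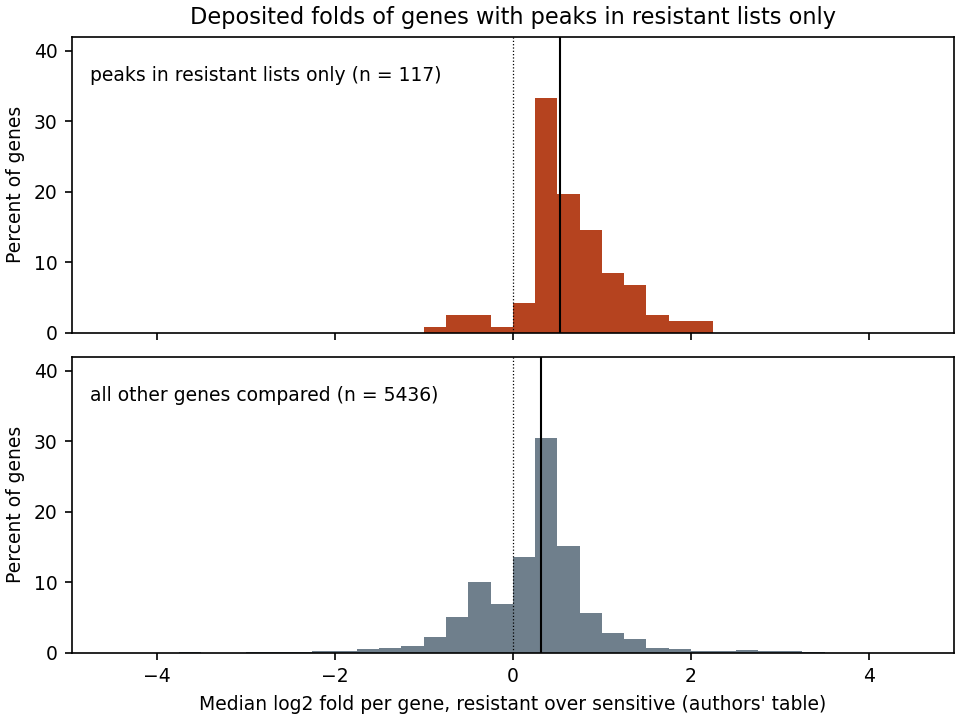
Distribution over genes of the median log2 fold, resistant over sensitive, in the authors' deposited table, for the 117 compared members (upper panel) and the 5436 other genes compared (lower panel), as percent of genes in steps of 0.25. Solid lines are the medians, 0.53 and 0.31 on the log2 scale, and the dotted line marks no difference.

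The largest called fold belonged to CDK2AP1, with 4.17 (p = 0.000417) in the authors' deposited table. TGFB1 followed with 3.32 (p = 0.0468), CNTD2 with 3.10 (p = 0.0347) and TMEM238, a membrane protein of unassigned role, with 3.01 (p = 0.000132) in the authors' deposited table. ATP6V0A2 had 2.73, RTCA 2.53, PAIP1 2.51, GPR135 2.45, TUSC1 2.31 and TNFRSF21 2.28 in the authors' deposited table. RB1 was called at 2.27 (p = 0.00661), TSN at 2.16 (p = 4.68e-05), KCNK5 at 2.03 (p = 0.0209) and ITGB4 at 1.80 (p = 0.0107) in the authors' deposited table. Whether that p was adjusted for the number of regions is not stated. With Benjamini-Hochberg adjustment of the p-values of the authors' deposited table over all its regions, TGFB1 (adjusted p = 0.106), CNTD2 (0.0877), GPR135 (0.0591) and KCNK5 (0.0631) were no longer called.

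Several members with small peak p-values had small folds in that comparison. LAMA3 had a median fold of 1.28, TRIM2 1.36, GRB7 1.33, RPL18 1.44, FTL 1.32 and CARM1 1.45 in the authors' deposited table, and none of them had a called region. IRS2, at a median of 3.56 over 5 rows, LAMP3, at 2.41 in 1 row, and ADCY1, at 4.25 over 2 rows, had large folds in the authors' deposited table with no region called. INHBE, FOXO1, RAB36 and CLDN4 were among the 32 members with no region in it.

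The median log2 fold was below 0 for 8 members in the authors' deposited table: NGFR (-0.98), KANK1 (-0.66), EFCAB5 (-0.56), MAFF (-0.53), EFCC1 (-0.49), CDKN2B (-0.40), NEDD4 (-0.36) and NYNRIN (-0.12). For MAFF the 8 compared rows included 3 on its resistant peaks, whose median fold was 1.42 in the authors' deposited table. For NGFR both compared rows lay on a resistant peak, with folds of 0.473 and 0.545 in the authors' deposited table, although no sensitive list held a row of the gene. All 3 compared rows of EFCC1 also lay on its resistant peaks, with a median fold of 0.712 in the authors' deposited table. For KANK1, 2 of 3 compared rows did, with a median fold of 0.660 in the authors' deposited table. For EFCAB5, NEDD4 and CDKN2B no compared row lay on a resistant peak, and the 2 CDKN2B rows had folds of 0.257 and 2.25 in the authors' deposited table. For NYNRIN the 1 row on a resistant peak had a fold of 1.73 in the authors' deposited table.

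By role, 6 of 12 compared receptor, ligand and adhesion genes and 5 of 11 metabolic genes had a region called higher in the authors' deposited table. The counts were 3 of 5 for channels and transporters, 3 of 6 for DNA repair and cell cycle, 3 of 7 for vesicle traffic, 3 of 12 for transcription, 3 of 13 for RNA processing and translation, 3 of 11 for ubiquitin genes, 1 of 13 for signalling, 1 of 4 for the cytoskeleton and 0 of 4 for immune and stress genes in the authors' deposited table. Genes with no assigned role had 8 of 19. These counts stand beside the 33.3% of all compared members and 14.2% of all genes compared in the authors' deposited table, and most rest on few genes, so nothing is read from their order.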

How the data were processed

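MeRIP-seq peak lists of the 6 pull-down libraries (3 per line) and the tables comparing the lines were used. Groups come from the sample titles; the sensitive lists carry the library number only. The submitters' processing notes name HISAT2. Neither the peak caller nor the genome build is given in the sources used here, and the same holds for the handling of replicates in the comparison. Each peak's fold enrichment, a ratio, and its p-value come from the authors (per the headers of the deposited files) and are used within a list. The comparison's linear fold and p-value were also deposited by the authors. Positions count from 1.

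Rows of a gene and strand with 1 or more exonic bases in common, directly or through other rows, were joined. No test was run: the lists chose the genes, and the labels do not tell whether replicates are separate cultures, so the SD over lists may be technical. Benjamini-Hochberg adjustment was computed from the deposited p-values for 1 alternative. Members, roles, gene lists and tests were chosen with earlier results of these data known. The genes named were the first 20 by the largest of their 3 smallest p-values and the last 5, the 8 with the highest minimum fold, the 10 largest called folds, up to 4 per role by p, the members of families with at most 6, and the 5 best just outside the rule. Further members were named for their role after their values were seen. Of the 149 names, 11 were not current symbols and 8 of those matched 1 gene in the GRCh38.p14 gene table, used for symbols only. Some results that this rule selects are not reported here. Peak sequences were not read. The code was tested on simulated data and ran in Python 3.11.15 with pandas 2.3.3, NumPy 2.4.6 and matplotlib 3.10.9.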

Additional observations from a re-analysis of the deposited data

How the results depend on the processing

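The number of genes depends on the rule. It was 149 as described, 432 when absence from at least 2 of 3 sensitive lists was enough, 385 when presence in at least 2 of 3 resistant lists was enough, and 219 to 264 when 1 list was left out. With rows of p below 1e-05 it was 199, but only 23 of those belong to the 149; with folds of at least 5 it was 151, of which 46 belong. The share of members with 1 position in all 3 resistant lists (77.9%) was 69.8% with an overlap of at least 50% of the shorter row. It was 81.2 to 89.3% with 1 resistant list left out, which leaves fewer lists to match. With rows of p below 1e-05 it was 15.4% of all 149 genes. Only 23 genes, the same 15.4%, kept such a row in every resistant list, and all 23 had 1 position. That lower share therefore reflects lost rows and not a loss of shared positions. The share of regions on the stop codon side (53.8%) was 46.3% over rows as listed, 1 per isoform. The median highest fold (4.61) was 4.10 for the row with the smallest p. Members with a region called higher (39) numbered 25 with Benjamini-Hochberg adjusted p-values (8.84% of all genes compared had one), 28 with folds divided by the median fold of the authors' deposited table (5.26% of all genes), and 52 to 64 when the set was redefined with 1 list left out and so grew. The causes of the other shifts were not tested. No paired analysis was possible because no result comes from a test. Limits on depth cannot be given, since the lists hold no read totals.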
